A study of Mus musculus with 17 samples.

Results

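The forestomach transcriptome of mice given benzo(a)pyrene (BaP) at 75 mg/kg per day was set against that of mice given 50 mg/kg per day, the upper 2 doses of the study. The comparison used 8 of the 17 arrays of the series, the 4 whose titles begin with 75 mg/kg and the 4 whose titles begin with 50 mg/kg, and no control array entered the difference. It addresses how the transcript levels of the tissue differ between these doses. All animals were adult males of the MutaTMMouse strain, a transgenic mouse that carries a bacterial reporter gene in every cell for mutation assays, and were 24 to 26 weeks old. They received BaP in olive oil by gavage for 28 days, and forestomachs were collected 72 hours after dosing ended. Per the labels, RNA was drawn from random pieces of the organ, and the reporter transgene is shared by all groups. Each array held RNA from 1 animal labelled with Cy5 and a reference RNA from 11 mouse cell lines labelled with Cy3, so a level below is the log2 ratio of forestomach over reference. The animals at 50 mg/kg are replicates 12 to 15 and those at 75 mg/kg replicates 17 to 20, and values per animal follow that order. The other groups were 5 olive oil controls and 4 animals at 25 mg/kg, which added to the estimate of spread.

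BaP is a combustion product that enzymes such as Cyp1a1, induced through the aryl hydrocarbon receptor (AHR), turn into diol epoxides that bind DNA. Bulky adducts on DNA can set off the p53 response, and the forestomach of rodents is a known site of BaP-induced squamous tumours. The forestomach is lined by stratified squamous epithelium, in which basal cells divide and suprabasal cells keratinise. Of 22 suprabasal and cornified layer markers, 21 were measured and all 21 were well above background on all 8 arrays.

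In the forestomach channel, 42.0% to 47.2% of probes passed the scanner software's test for a signal well above background at 50 mg/kg, and 44.6% to 50.7% did at 75 mg/kg. The doses were balanced over the 3 slides, but every 50 mg/kg array lay in array column 3 of its slide and every 75 mg/kg array in column 4, so array column and dose cannot be told apart. Markers of neighbouring tissue were uneven between animals. The mean of the 2 measured pancreas acinar markers was 2.17 in replicate 17 and -0.50 to -0.31 on the other 7 arrays, and the mean of the 7 hepatocyte markers was 3.89 in replicate 17 and 1.15 to 2.38 on the others. The 12 measured glandular stomach markers averaged 2.28 in replicate 17 and 2.60 in replicate 20, against 0.58 to 1.76 on the other 6 arrays. At 50 mg/kg, replicate 13 was the highest of the 8 arrays for B cell markers (-1.46, others -3.22 to -2.47) and red blood cell markers (4.17, others 2.51 to 3.21). The part of these markers in the results was not tested.

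No gene passed the threshold between 75 and 50 mg/kg. Of 21384 genes tested with limma, 0 (0%) had a Benjamini-Hochberg adjusted p below 0.05, and the smallest adjusted p was 0.187, shared by Grip1 and Zfp608. At an unadjusted p under 0.05 there were 587 genes (2.75%), 341 higher at 75 mg/kg (1.59%) and 246 lower (1.15%). That share is below the fraction of 0.05 that such a cutoff would give if no gene differed. The arrays of the doses did not overlap for 397 genes (1.86%), 240 higher (1.12%) and 157 lower (0.734%) at 75 mg/kg. The median difference of all genes was 0.0011 and the median absolute difference 0.09 on the log2 scale, against a median standard error of 0.14. For 96.3% of genes the 95% interval of the difference lay within 2-fold in either direction, and for 81.9% within 1.5-fold. A difference of at least 1.5-fold was measured for 0.772% of genes, 112 higher (0.524%) and 53 lower (0.248%) at 75 mg/kg. With slide as a block, 4.87% of genes had an unadjusted p under 0.05 and 0 passed the adjusted threshold.

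Single animals moved the count. Without replicate 19 of the 75 mg/kg group, 6 genes passed, all higher at 75 mg/kg. They were Grip1, Defb3, Stfa2l1, Gm21944, Mcpt1 and a transcript with no symbol, and their smallest adjusted p was 0.00186, for Defb3. Without replicate 20 of that group 1 gene passed, Zfp608 (-0.91, limma adjusted p = 0.039). Leaving out any other array of the 17 gave 0.

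**Figure D1:**
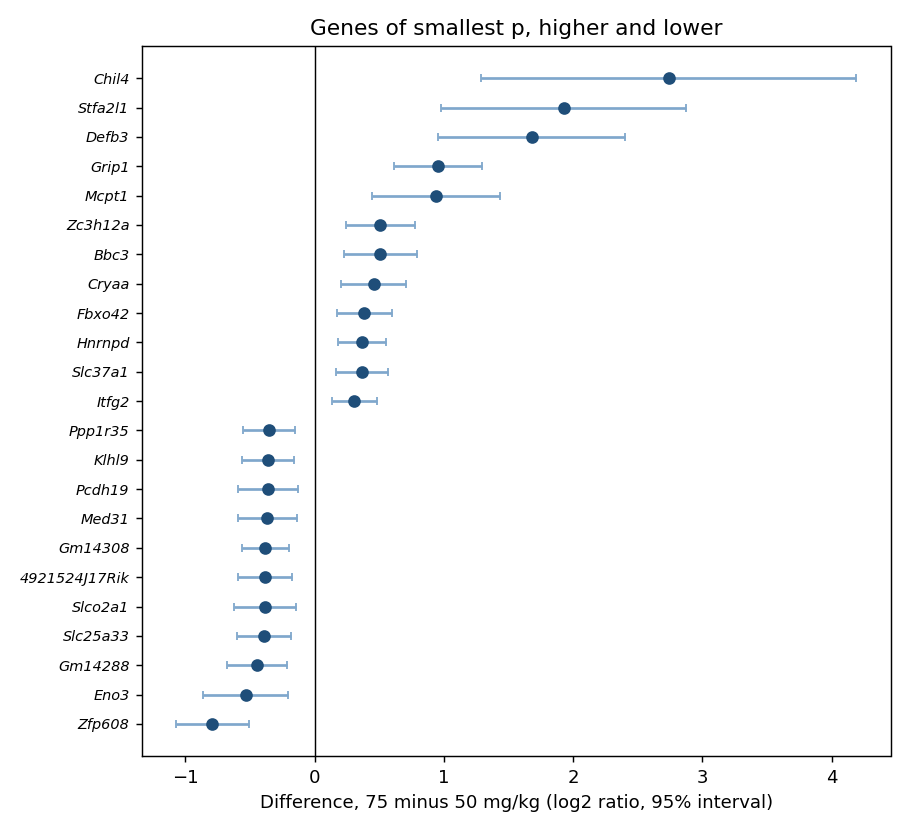
Difference in log2 ratio, 75 minus 50 mg/kg (horizontal axis), with its 95% interval from the limma fit, for 23 of the genes of smallest unadjusted p (12 higher, 11 lower); n = 4 animals per dose. Chil4 lies farthest to the right at 2.74 with an interval from 1.29 to 4.19, and Zfp608 farthest to the left at -0.79. These genes were chosen by this p, so every interval lies away from 0, and none passed the adjusted threshold.

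Grip1 and Zfp608 had the smallest p-values in each direction. Grip1, a scaffold protein with PDZ domains, had log2 ratios of 1.64, 1.43, 1.48 and 1.55 at 50 mg/kg and of 2.69, 2.44, 1.98 and 2.80 at 75 mg/kg. All 4 animals at 75 mg/kg lay above all 4 at 50 mg/kg, with replicate 19 nearest to them. The difference was 0.95 ± 0.16 (SE), a 1.94-fold higher level at 75 mg/kg (unadjusted p = 1.75e-05, limma adjusted p = 0.187), and it was 1.05, 0.76 and 1.25 on slides 1, 2 and 3. It stayed between 0.58 and 1.12 over 32 other settings of the processing. Control animals averaged 0.78 ± 0.04 (SD, n = 5).

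Zfp608, a zinc finger protein, stood at -0.14, 0.31, 0.26 and 0.19 at 50 mg/kg and at -0.66, -0.82, -0.79 and -0.27 at 75 mg/kg. The groups did not overlap, and the nearest animals were replicate 12 and replicate 20. The difference was -0.79 ± 0.13, a 1.73-fold lower level at 75 mg/kg (unadjusted p = 1.68e-05, adjusted p = 0.187). Its mean at 50 mg/kg lay 0.02 from the control mean. Every other gene named below had an adjusted p that rounds to 1 in this fit, so differences are given as values.

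The epithelial stress and defence genes held the widest differences. Among 17 stress keratins and alarmins, 13 were measured, 11 were higher and 2 lower at 75 mg/kg, 0 passed the threshold, and the median difference was 0.71, against 0.0011 for all genes. That median ranged from 0.42 without replicate 14 to 1.26 without replicate 12. Of the 13 genes, 6 passed against control at 75 mg/kg by the same fit. Like every list here, this one was chosen with earlier results known, which favours members far from control at 75 mg/kg. The split in direction and the median of such a list therefore carry no support. Stfa1, a stefin A protein that inhibits cysteine proteases, had log2 ratios of 6.90, 1.76, 2.04 and 3.53 at 50 mg/kg and 6.99, 6.26, 4.15 and 8.42 at 75 mg/kg. Replicate 12 lay within the range of the 75 mg/kg animals, and the other 3 animals at 50 mg/kg lay below all of them. The difference was 2.90 ± 0.90, or 7.45-fold (unadjusted p = 0.00498), and 0.09, 3.30 and 4.89 on slides 1 to 3.

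Stfa2l1, a second stefin A gene, stood at 3.33, 1.68, 1.49 and 2.70 at 50 mg/kg and at 4.01, 5.11, 2.74 and 5.06 at 75 mg/kg. Here replicate 19 fell among the 50 mg/kg animals, below replicate 12. The difference was 1.93 ± 0.45 (unadjusted p = 5.06e-04). Stfa2 (1.73 ± 0.56) and Gm21944 (1.75 ± 0.50) were also higher at 75 mg/kg with overlap between the doses. Stefin A genes are near-identical copies, so a probe may read more than 1 of them.

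Defb3, a beta-defensin with antimicrobial activity, read 1.41, 0.42, 0.34 and 0.37 at 50 mg/kg and 2.76, 2.32, 0.95 and 3.24 at 75 mg/kg. It was well above background on 2 of 4 arrays at 50 mg/kg and on all 4 at 75 mg/kg. A probe was kept at 4 such arrays of the 17, so the arrays at 75 mg/kg were enough for Defb3 to enter. Replicate 12 lay above replicate 19, and the other animals were apart by dose. The difference was 1.68 ± 0.34 (3.20-fold, unadjusted p = 1.43e-04). A second defensin, Defb14, differed by 0.11 ± 0.36.

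Chil4, a chitinase-like lectin made by epithelium and macrophages, stood at 4.32, 2.92, 1.00 and 1.42 at 50 mg/kg and at 4.81, 6.41, 2.93 and 6.47 at 75 mg/kg. The difference was 2.74 ± 0.69 (6.69-fold, unadjusted p = 9.84e-04), and the ranges overlapped through replicates 12 and 19. Chil3, its neighbour in the family, stood at -1.72, -1.51, -2.85 and -3.07 at 50 mg/kg and at -1.33, 2.63, -1.58 and -0.16 at 75 mg/kg. Replicate 18 held the highest value of both doses, and the difference of 2.18 ± 0.72 ranged from 1.26 to 2.67 over the other settings. Chil1 differed by 0.27 ± 0.23.

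Krt16, a keratin of wounded and hyperproliferative epithelium, stood at 5.79, 2.67, 2.99 and 3.71 at 50 mg/kg and at 5.42, 4.76, 3.29 and 5.24 at 75 mg/kg. The highest of the 8 values was at 50 mg/kg, in replicate 12, and the difference of 0.89 ± 0.60 had an interval from -0.38 to 2.16. Its partners Krt6a and Krt6b differed by 0.54 and 0.71, and Krt17 by less than 0.01 in size. The S100 alarmins S100a8 and S100a9 differed by 0.51 and 0.37.

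Small proline-rich proteins, which are cross-linked into the cornified envelope, were higher at 75 mg/kg for 9 of 10 measured members, with a median difference of 0.33. That median was 0.07 without replicate 20 and 0.61 without replicate 19, and the mean difference of the list was less than 0.01 in size on slide 1, 0.50 on slide 2 and 1.12 on slide 3. Sprr2f stood at 4.15, 1.57, 0.81 and 1.5 at 50 mg/kg and at 3.57, 3.92, 1.89 and 3.78 at 75 mg/kg, and replicate 12 was the highest of the 8 animals. Its difference was 1.28 ± 0.55 (unadjusted p = 0.0325), that of Sprr2h 1.14 ± 0.46 and that of Sprr1b 1.20 ± 0.61. Sprr3 and Sprr1a differed by 0.03 and -0.05.

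Desmosomes join keratinocytes, and 11 of 13 measured desmosome genes were higher at 75 mg/kg, with a median of 0.21 and 0 past the threshold. The cadherin Dsc2 stood at 2.35, 1.14, 1.35 and 2.28 at 50 mg/kg and at 2.98, 2.84, 1.84 and 3.72 at 75 mg/kg. Replicate 19 was the 1 animal at 75 mg/kg within the range at 50 mg/kg. Dsc2 differed by 1.07 ± 0.33 and the cadherin Dsg1a by 1.01 ± 0.34 (unadjusted p = 0.00492 and 0.00962), while the plaque proteins Pkp1 and Jup differed by -0.01 and 0.21. The 21 measured suprabasal and cornified layer genes as a whole had a median of -0.01, with 10 higher and 11 lower, and the 11 basal keratinocyte genes one of 0.04.

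**Figure D2:**
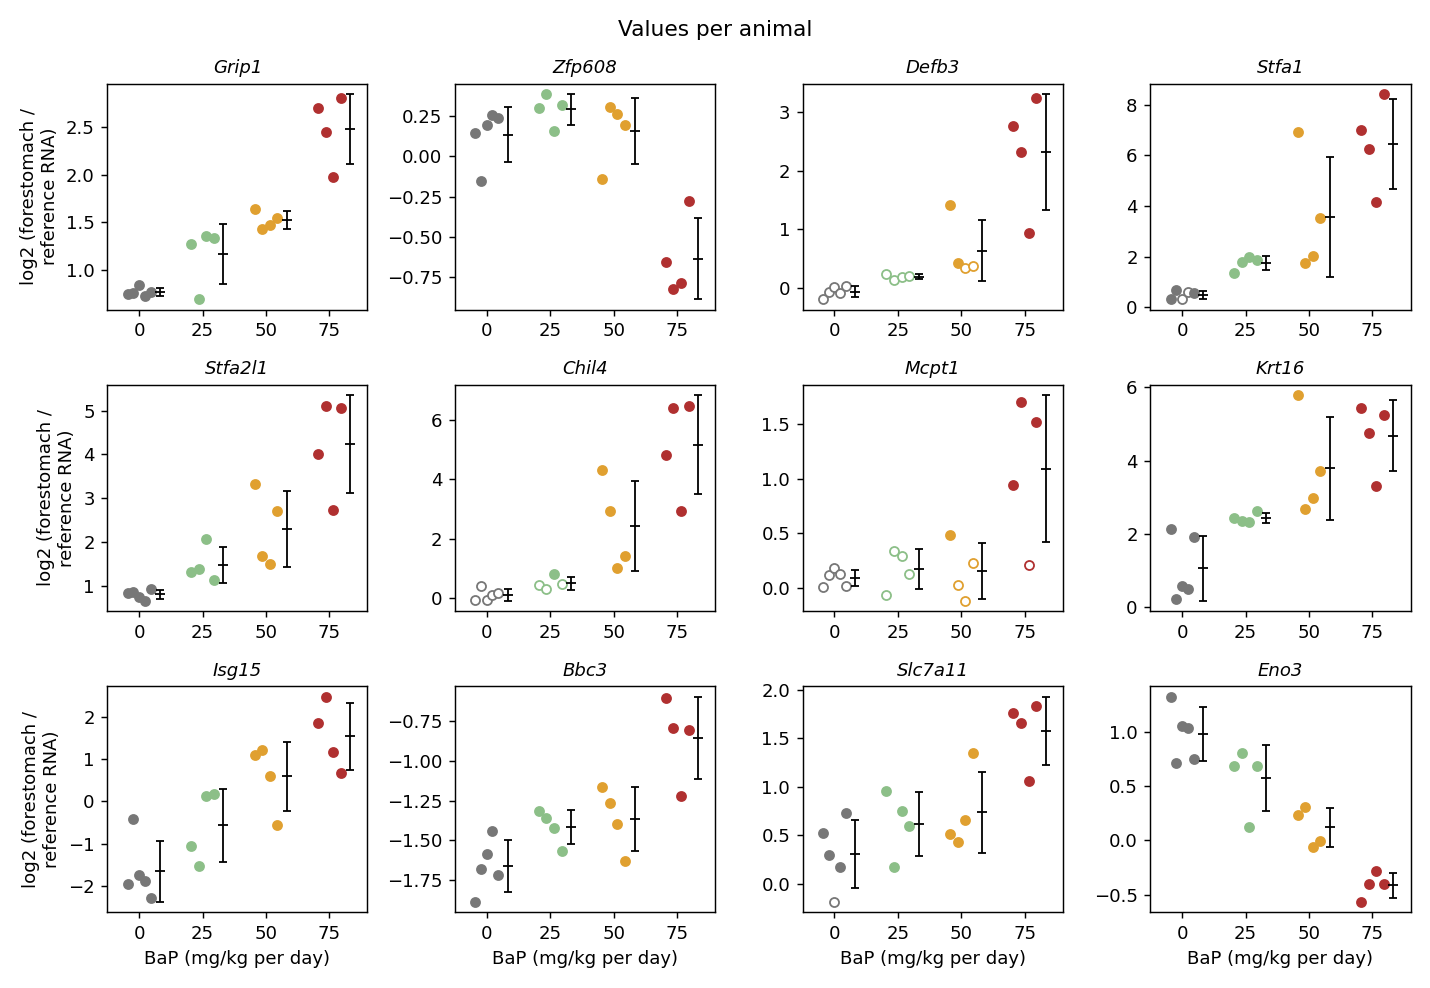
Log2 ratio of forestomach over reference RNA (vertical axis, scale set per gene) against daily dose (horizontal axis) for 12 genes; each dot is 1 animal, open dots are not well above background, and bars give the mean ± SD (n = 5 at dose 0, n = 4 at other doses). Grip1, Zfp608 and Eno3 separate the 50 and 75 mg/kg animals, while Stfa1 and Krt16 have 1 animal at 50 mg/kg, replicate 12, with values of 6.90 and 5.79.

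Replicate 12 was the highest animal at 50 mg/kg and replicate 19 the lowest at 75 mg/kg for each of Stfa1, Stfa2l1, Defb3, Chil4, Krt16 and Sprr2f. The mean of the stress keratin and alarmin list was 4.92, 2.96, 2.74 and 3.50 at 50 mg/kg and 4.77, 4.53, 3.19 and 5.42 at 75 mg/kg. The difference of that list mean was -0.15 on slide 1, which holds replicate 12, and 1.01 and 1.92 on slides 2 and 3. As the RNA came from whole tissue, fewer cells of a type and less RNA per cell cannot be told apart. Of 7 measured neutrophil markers, which include S100a8 and S100a9, 5 were higher and 2 lower, with a median of 0.17 and mean differences of -0.05, -0.08 and 0.91 on slides 1, 2 and 3. The receptors Cxcr2 and Csf3r differed by 0.26 ± 0.25 and 0.17 ± 0.21, and the part of neutrophils in the results above was not tested.

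Mcpt1, a mast cell protease of mucosal surfaces, read 0.48, 0.03, -0.12 and 0.23 at 50 mg/kg and 0.95, 1.70, 0.21 and 1.52 at 75 mg/kg. It was well above background on 1 of 4 arrays at 50 mg/kg and on 3 of 4 at 75 mg/kg, and replicate 19 fell within the range at 50 mg/kg. A probe was kept if 4 of the 17 arrays passed this test, so the 3 arrays at 75 mg/kg helped Mcpt1 enter. What this selection adds to its difference was not tested. The difference was 0.94 ± 0.23 (unadjusted p = 9.16e-04). Mcpt2, a related protease, differed by 0.75 ± 0.34, whereas the 9 measured mast cell and eosinophil markers had a median of 0.05, with 5 higher and 4 lower.

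Interferon response genes are switched on by a transcription factor complex that includes Stat2 and Irf9 and binds an interferon-stimulated response element in their promoters. All 24 measured members of 27 in this list were higher at 75 mg/kg, with a median difference of 0.39, and 0 passed the threshold; 50.3% of all genes tested were higher. The largest difference was 0.95, for Isg15. Of the 24, 2 (Cxcl9 and Stat2) were higher at an unadjusted p under 0.05, beside 1.59% of all genes tested. None separated the doses, beside 1.12% of all genes that did so with higher values at 75 mg/kg. The median of the list was between 0.21 and 0.55 over 32 other settings. Members of such a list share animals and move together within them, and the list was chosen with earlier results of these data known.

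The core of the element was searched as GAAA, any 2 bases and GAAA again, on both strands, overlapping matches included, in windows from 250 bases before to 50 after each gene's start (RefSeq, GRCm38.p6). It was present in 11 of the 21 promoters found for measured members, or 52.4%, against 3.44% of all 32851 promoters in the table and 3.06% of those of tested genes. For 5 of the 24 members no promoter was matched. Members were listed because they are known interferon response genes, so the 52.4% is not a result about the doses. The 250 bases before the start of Isg15 (chr4:156200819-156201068, minus strand), Ifit3 (chr19:34583279-34583528, plus strand) and Oas1a (chr5:120907526-120907775, minus strand) are shown, with the matches in capitals. These members have both a match and values per animal given below. Cxcl9, whose values per animal are also given, had 0 matches in its window and is not shown. Bst2 and Ifit1 also carry 2 matches each and are not shown.
Isg15: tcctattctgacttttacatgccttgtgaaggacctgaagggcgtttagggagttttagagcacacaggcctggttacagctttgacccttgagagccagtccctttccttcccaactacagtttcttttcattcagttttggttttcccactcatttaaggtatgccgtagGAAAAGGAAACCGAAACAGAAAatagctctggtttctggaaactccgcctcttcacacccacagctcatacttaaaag
Ifit3: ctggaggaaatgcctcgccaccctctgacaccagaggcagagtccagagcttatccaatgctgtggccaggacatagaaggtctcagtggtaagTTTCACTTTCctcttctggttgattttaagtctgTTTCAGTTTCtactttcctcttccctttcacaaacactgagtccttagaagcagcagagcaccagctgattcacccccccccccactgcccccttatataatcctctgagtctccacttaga
Oas1a: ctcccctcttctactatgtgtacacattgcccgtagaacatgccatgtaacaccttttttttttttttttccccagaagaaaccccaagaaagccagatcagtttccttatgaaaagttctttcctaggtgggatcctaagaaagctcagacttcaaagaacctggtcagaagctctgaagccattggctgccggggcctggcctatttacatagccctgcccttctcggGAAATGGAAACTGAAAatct
In Isg15 the capitals are 3 overlapping matches whose first bases lie 78, 72 and 66 bases before the start. Oas1a holds 2 overlapping matches at 20 and 14 bases, and Ifit3 holds 2 on the reverse strand at 156 and 122 bases. A match describes the letters in the window and is not a measured site.

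Isg15, a ubiquitin-like antiviral protein, stood at 1.10, 1.22, 0.59 and -0.56 at 50 mg/kg and at 1.84, 2.47, 1.16 and 0.66 at 75 mg/kg. Replicate 15 was the lowest animal, and replicates 19 and 20 lay within the range at 50 mg/kg. The difference was 0.95 ± 0.50, with an interval from -0.10 to 2.00 (unadjusted p = 0.0745), and a second probe of Isg15 gave 0.99 ± 0.34. Oas1a, which makes the second messenger of RNase L, stood at -0.29, -0.45, -0.60 and -1.92 at 50 mg/kg and at 0.24, 0.90, -1.01 and -0.02 at 75 mg/kg. Replicate 19 was lower than 3 of the 4 animals at 50 mg/kg, and the difference was 0.84 ± 0.42. Ifit3 differed by 0.46 ± 0.23 with values of 0.80, 1.38, 0.90 and 0.68 against 1.34, 1.90, 1.09 and 1.27.

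Cxcl9, a chemokine that attracts T cells, stood at 1.07, 1.07, 0.53 and 0.36 at 50 mg/kg and at 2.10, 1.58, 0.78 and 1.88 at 75 mg/kg. Replicate 19 was again within the lower range, and the difference was 0.83 ± 0.27 (unadjusted p = 0.00755). A second probe of Cxcl9 gave 0.50 ± 0.19. Stat2 differed by 0.49 ± 0.21 and Cxcl10 by 0.55 ± 0.43. The 11 measured T cell and NK cell markers had a median of 0.04, and Cd3d differed by 0.19 ± 0.41.

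Class I antigen presentation genes, which load peptides onto H2 molecules, were higher at 75 mg/kg for 12 of 14 measured members, with a median of 0.29 and 0 past the threshold. That median was 0.10 without replicate 15 and 0.51 without replicate 13, and the mean difference of the list was 0.17, -0.01 and 1.00 on slides 1, 2 and 3. H2-K1 stood at 1.38, 1.82, 1.33 and -0.01 at 50 mg/kg and at 1.80, 2.06, 1.12 and 1.83 at 75 mg/kg, and replicate 15 was the lowest of the 8. Its difference was 0.57 ± 0.33. The peptide transporter Tap1 differed by 0.48 ± 0.24 and the coactivator Nlrc5 by 0.50 ± 0.25, while a second probe of Nlrc5 gave -0.04 ± 0.12. Of the 12 measured interferon-inducible GTPases, 11 were higher, with a median of 0.24 that ranged from -0.07 to 0.59 over the other settings. Their mean difference was 0.12, -0.40 and 1.5 on slides 1, 2 and 3, so their direction was not shared by the slides.

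**Figure D3:**
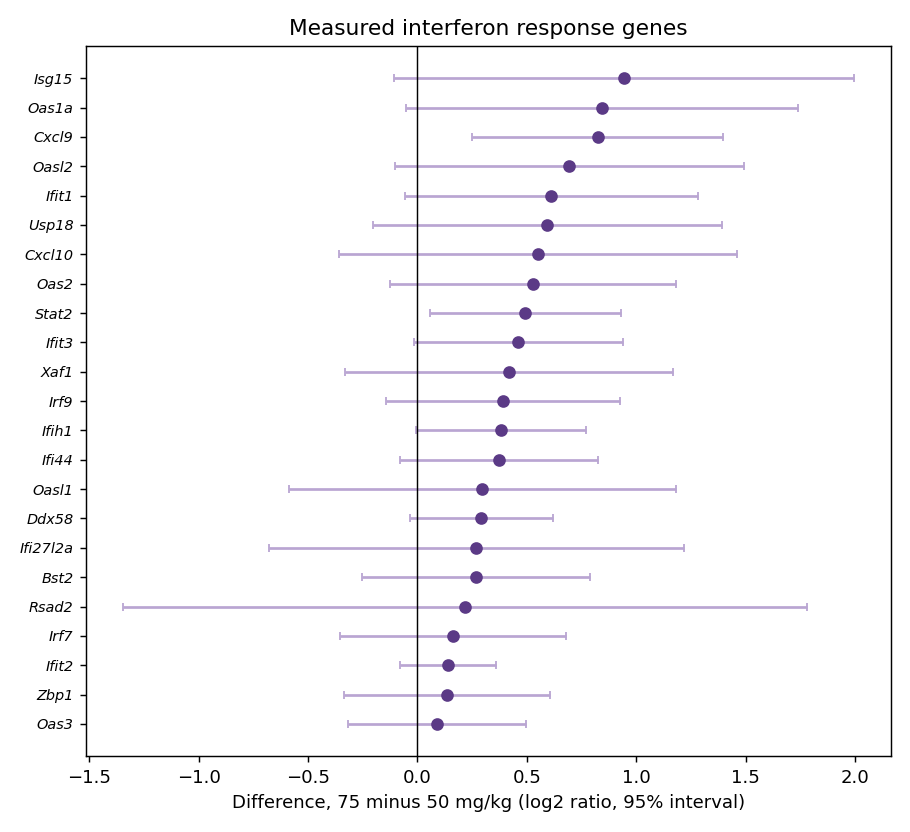
Difference in log2 ratio, 75 minus 50 mg/kg (horizontal axis), with its 95% interval from the limma fit, for 23 of the 24 measured interferon response genes; n = 4 animals per dose. All 23 points lie to the right of 0, up to 0.95 for Isg15. The intervals of Cxcl9 and Stat2 alone lie above 0.

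Genes of the p53 response had a median difference near that of all genes, and some members were higher. Of 26 measured targets, 16 were higher and 10 lower at 75 mg/kg, with a median of 0.08, 0 past the threshold. At an unadjusted p under 0.05, 4 of the 26 were higher and 0 lower, beside 1.59% higher and 1.15% lower over all genes tested. Bbc3, which encodes the BH3-only death protein PUMA, stood at -1.17, -1.27, -1.40 and -1.63 at 50 mg/kg and at -0.61, -0.80, -1.22 and -0.81 at 75 mg/kg. Only replicate 19 overlapped the lower dose, and the difference was 0.51 ± 0.13 (unadjusted p = 0.00149). The death receptor Tnfrsf10b differed by 0.38 ± 0.14, Phlda3 by 0.26 and the nuclease Aen by 0.26 ± 0.11. Pmaip1, which encodes the BH3-only protein NOXA, separated the doses with -1.16, -1.28, -1.12 and -1.41 against -0.80, -1.10, -1.10 and -0.75, a difference of 0.31 ± 0.15. The arrest gene Cdkn1a, the p53 inhibitor Mdm2 and the pore protein Bax differed by 0.10, 0.10 and 0.02, and the interval for Bax ran from -0.18 to 0.23. The 20 measured repair and bypass polymerase genes had a median of 0.05, and the 24 cell cycle genes one of 0.01.

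Of 14 measured AHR battery genes, which include regulators such as Ahr and Arnt beside enzymes, 10 were higher at 75 mg/kg, with a median of 0.19. Cyp1a1 was well above background on 0 of 4 arrays at 50 mg/kg and on 2 of 4 at 75 mg/kg. Its fitted difference was 0.37 ± 0.19, and the ranges overlapped (0.02 to 0.32 at 50 mg/kg, 0.19 to 1.00 at 75 mg/kg). With 50 mg/kg signals raised to the lowest signal above background, the mean Cy5 signal at 75 mg/kg was 1.24-fold higher. That value has no error attached, includes arrays at 75 mg/kg that were not well above background, and is open to dye bias. It does not set a least rise. Ugt1a6a, a conjugating enzyme, differed by 0.29 ± 0.12 (unadjusted p = 0.0243).

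Slc7a11, the cystine transporter that feeds glutathione synthesis, stood at 0.51, 0.43, 0.66 and 1.35 at 50 mg/kg and at 1.76, 1.65, 1.06 and 1.83 at 75 mg/kg. Replicate 15 lay above replicate 19, and the other animals were apart by dose. The difference was 0.84 ± 0.24 (1.79-fold, unadjusted p = 0.00243). The other 18 measured NRF2 targets differed by less than this, and the median of all 19 was 0.09. Gsto1, a glutathione transferase of the omega class, separated the doses with 2.31, 1.91, 2.33 and 2.27 against 3.01, 2.88, 2.41 and 2.72, a difference of 0.55 ± 0.16 (unadjusted p = 0.00363). The 19 glutathione transferases had a median of -0.01, with 8 higher and 11 lower.

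Genes lower at 75 mg/kg had smaller differences. Eno3, the muscle enolase of glycolysis, stood at 0.23, 0.31, -0.06 and -0.01 at 50 mg/kg and at -0.57, -0.40, -0.28 and -0.40 at 75 mg/kg. The doses did not overlap, and the difference was -0.53 ± 0.15 (1.45-fold lower, unadjusted p = 0.00314), with -0.80, -0.47 and -0.40 on slides 1, 2 and 3. The 8 measured striated muscle genes had a median of -0.19 and the 12 smooth muscle genes one of -0.12.

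Ugt2b34, a glucuronosyltransferase, stood at 2.21, 2.96, 2.63 and 3.65 at 50 mg/kg and at 2.06, 1.71, 2.01 and 1.44 at 75 mg/kg. All animals at 75 mg/kg were lower, and the difference was -1.06 ± 0.36 (2.08-fold lower, unadjusted p = 0.0101). Grp, the gut neuropeptide gastrin-releasing peptide, stood at 2.20, 2.18, 1.78 and 2.33 at 50 mg/kg and at 1.06, 1.23, 1.19 and 1.88 at 75 mg/kg, with replicate 20 alone within the upper range. Its difference was -0.78 ± 0.29. Tac1 and Penk, which encode tachykinin and enkephalin precursors, differed by -0.46 ± 0.26 and -0.45 ± 0.21, and the 13 measured neuropeptide genes had a median of -0.10 beside -0.03 for the 14 measured enteric nerve and glia markers.

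Of 21 measured genes of fatty acid oxidation and PPAR targets, 18 were lower at 75 mg/kg, with a median of -0.12 and 0 past the threshold. That median was 0.02, with 12 higher and 9 lower, when arrays were centred on their median without loess, a scaling under which the median of all genes was 0.11. Plin2, a lipid droplet protein, differed by -0.33 ± 0.13 (unadjusted p = 0.026), Fabp3, a fatty acid carrier, by -0.64 ± 0.33, and Angptl4, a lipase inhibitor, by -0.58 ± 0.32. The 16 adipocyte markers had a median of -0.02.

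**Figure D4:**
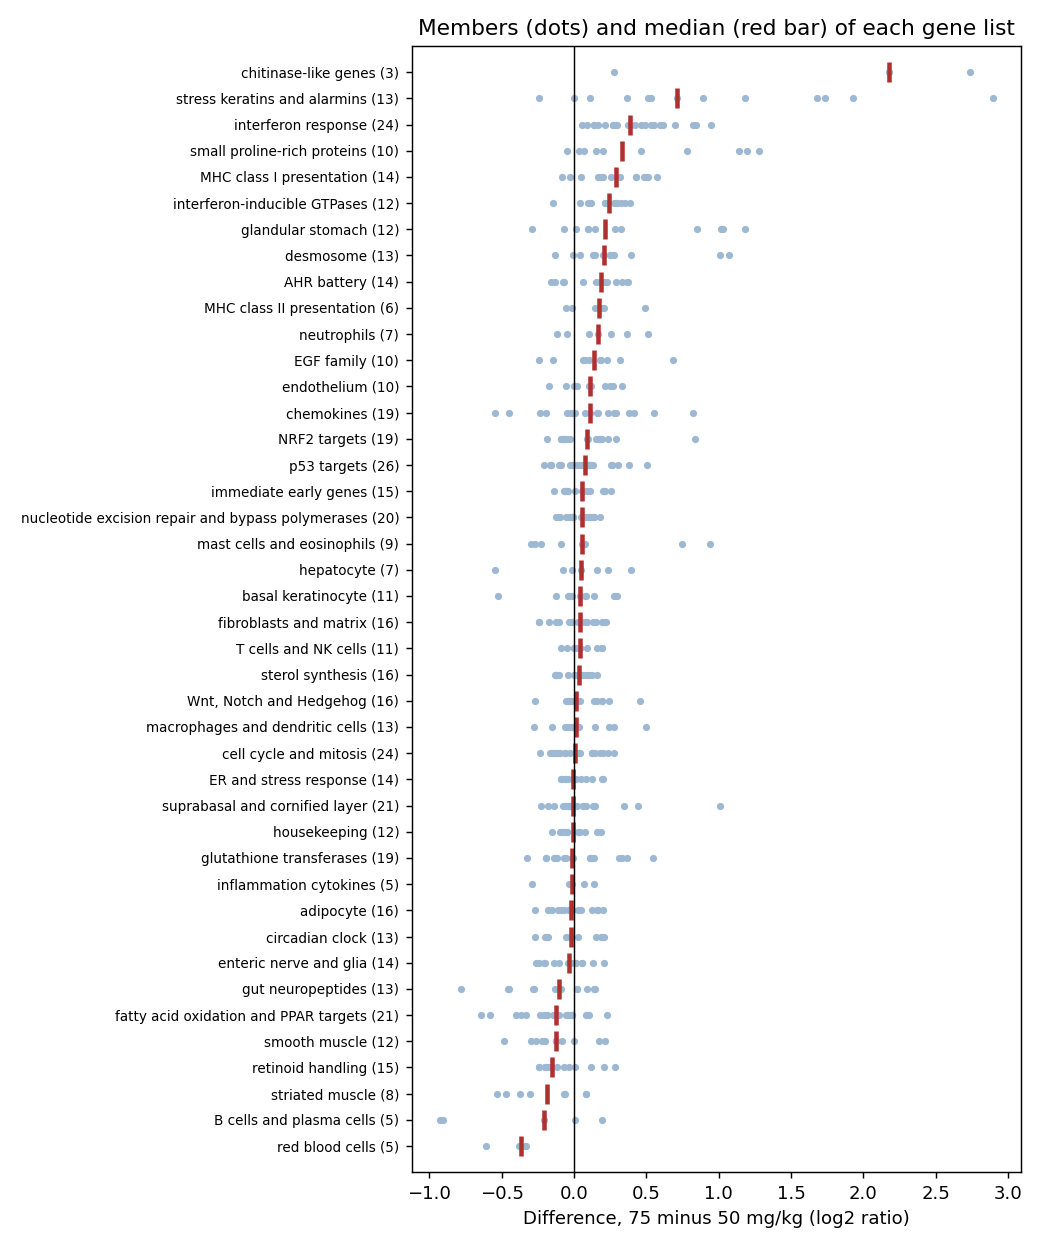
Difference in log2 ratio, 75 minus 50 mg/kg (horizontal axis), of each measured member (dots) and the median (red bar) of gene lists with at least 3 measured members; the number measured is in parentheses. Chitinase-like genes (median 2.18), stress keratins and alarmins (0.71) and interferon response genes (0.39) lie farthest to the right, and red blood cell markers (-0.36) farthest to the left. No member of any list passed the adjusted threshold.

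Against control, 236 genes (1.1%) passed at 75 mg/kg by the same limma fit, 191 higher and 45 lower, and 10 (0.0468%) at 50 mg/kg, 9 higher (0.0421%) and 1 lower (0.00468%). The unequal counts do not show that these genes differed between the doses, since 0 passed in the direct comparison. All 10 genes that passed at 50 mg/kg also passed at 75 mg/kg, and both contrasts share the control arrays. The 10 were Ccl8, Fgf9, Oas1a, Ifih1, Nlrc5, Bst2, Ms4a7, Susd4 and Trp53inp1, all higher, and Eno3, lower. Bst2, Fgf9 and Susd4 are named here because they passed, outside the rule for named genes.

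For several of these genes the estimates at the doses lay close together. Ccl8, a monocyte chemokine, was 3.67 ± 0.40 above control at 50 mg/kg and 3.96 ± 0.40 at 75 mg/kg, and the direct difference was 0.29 with an interval from -0.61 to 1.18. Fgf9, an epithelial growth factor, was 1.45 ± 0.17 and 1.64 ± 0.17 above control, with a direct difference of 0.20 from -0.18 to 0.57. Susd4, a complement regulator, was 1.00 and 1.09 above control, with a direct difference of 0.09 from -0.27 to 0.44. Trp53inp1, a p53 target, was 0.72 and 0.83 above control, with a direct difference of 0.11 from -0.14 to 0.36. The interval of the direct difference reached farther from 0 for Ccl8 than for the other 3 genes.

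Other genes that differed from control at 75 mg/kg had an estimate nearer to control at 50 mg/kg. Stfa1 was 3.06 above control at 50 mg/kg and 5.96 at 75 mg/kg, Sprr2f 1.5 and 2.78, and Slc7a11 0.43 and 1.27. Dsg1a was 0.68 and 1.69 above control, and Bbc3 0.30 and 0.80. Ugt2b34 was -0.48 from control at 50 mg/kg and -1.54 at 75 mg/kg. These genes were chosen on the 75 mg/kg arrays, which favours a larger value there, so the direction of their difference between the doses carries no support.

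**Figure D5:**
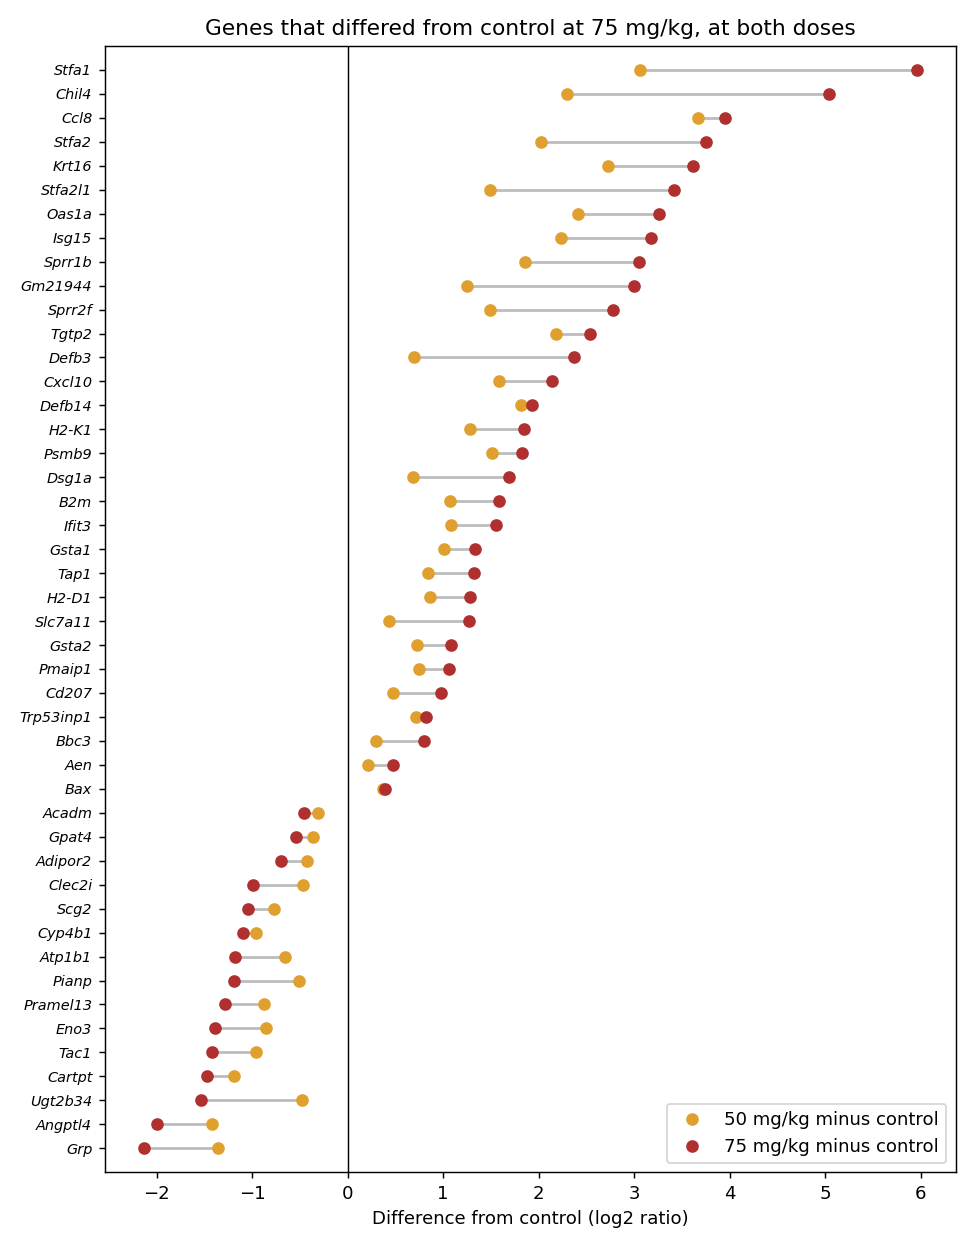
Difference from control in log2 ratio (horizontal axis) at 50 mg/kg (orange) and 75 mg/kg (red) for 46 genes chosen because they passed against control at 75 mg/kg; n = 4 animals per dose and 5 controls, and both differences share the control arrays. Ccl8 has near-equal points (3.67 and 3.96) and Stfa1 the widest gap (3.06 and 5.96). No control array measured Chil4, Defb3 or Cd207 well above background, so the size of their difference from control is not fully measured.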

How the data were processed

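For each array the authors deposited the intensity values of both channels from Feature Extraction (version 10.7.3.1, per the file headers), and a series table of log2 values, used as an alternative. Median spot and median background intensity were used, in place of the mean signal the plan had named, which the tables used here lack. The scale of the series table is not given in the sources used here; its columns tracked loess log2 ratios of Cy5 over Cy3 without background correction (r = 0.998 to 0.999 over probes, column medians -0.03 to -0.02). Background was corrected with normexp (offset 50), log ratios were loess-normalized within arrays (control spots given weight 0), and outlier spots were left out. A probe was kept where 4 or more arrays had its Cy5 signal well above background (27577 of 55681), and the brightest probe stood for its gene. Symbols came from RefSeq accessions in the GRCm38.p6 gene table (26413 probes with 1 symbol, 0 with several, 29268 with none), and 13855 of the 21384 genes tested had one. No dyes were swapped.

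All 17 arrays entered 1 fit with 4 group means in limma 3.58.1 under R 4.3.3 (functions lmFit and eBayes), with two-sided p-values adjusted over all genes by Benjamini-Hochberg and a threshold of 0.05. The fit was tested on simulated data. Errors after ± are SE unless stated, and depth has no meaning for arrays, whose number limits precision. The design text calls the animals of a group biological replicates. As 0 genes passed, named genes were the 12 with a symbol and the smallest p in each direction, the 3 of smallest p in each gene list, and 46 genes earlier named at 75 mg/kg. Some further list members, such as Krt6a, S100a8, Sprr3, Jup, Phlda3 and Cdkn1a, are given by their difference alone, outside this rule. Some results are not reported here. The comparison, its members and all gene lists were chosen with earlier results of these data known.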

Additional observations from a re-analysis of the deposited data

Results flagged for a closer look

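Among 114 groups of 4 animals (57 of the genes named in the text, at each of the 2 doses), 5 held an outlying animal. In each, the gap of that animal to its nearest neighbour was above Dixon's critical value as a share of the group's range. Chance gives about 1 in 20 such groups. Genes named outside the naming rule were not screened. Replicate 12 at 50 mg/kg stood above the others for Defb3 (1.41, others 0.34 to 0.42), Sprr2h (2.71, others 0.42 to 0.63) and Aen (0.074, others -0.22 to -0.17). Replicate 13 at 50 mg/kg stood below the others for Gsto1 (1.91, others 2.27 to 2.33). Replicate 19 at 75 mg/kg stood below the others for Cd3d (-0.076, others 0.71 to 0.78).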

How the results depend on the processing

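The count of genes past the threshold was 0 under the other processing settings tried, with these exceptions: it was 1 (a transcript with no symbol, higher) with the Cy5 channel alone and 2 with array weights (Grip1 higher, Zfp608 lower), and it ranged from 0 to 6 when 1 array was left out. The 587 genes at an unadjusted p under 0.05 became 362 with median centring without loess (344 higher and 18 lower, where the median of all genes was 0.11), 1294 without a filter on dim probes, 1041 with slide as a block, 1147 with slide as a block in the 8 arrays, 1374 with array weights, and 437 to 871 with 1 array left out. No paired analysis was possible by replicate number, because the doses share none, and the blocked fits used slide, which holds both doses. With 4 animals per dose, a median SE of 0.14 limits what could be detected, and genes near background are limited further. Median centring also moved the median of p53 targets from 0.08 to 0.24, of repair genes from 0.05 to 0.20 and of cell cycle genes from 0.01 to 0.14. It moved that of macrophage and dendritic cell markers from 0.01 to 0.13. The medians of smooth muscle and retinoid genes, among others, changed sign under it, to 0.03 and 0.02. Over all settings the median of T cell and NK cell markers ranged from -0.03 to 0.17, and that of chitinase-like genes from 1.26 to 2.67. Array weights moved that of fibroblast and matrix genes from 0.04 to -0.21.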

Other observations

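Other signalling and tissue genes are given by value. Notch3, a Notch receptor, stood at 1.47, 1.70, 1.51 and 1.57 at 50 mg/kg and at 2.19, 2.04, 1.68 and 2.18 at 75 mg/kg, a difference of 0.46 ± 0.16 (unadjusted p = 0.00941), with replicate 19 within the lower range. Hey1, a Notch target, went the other way, with a difference of -0.27 ± 0.10. It stood at -0.51, -0.46, -0.54 and -0.66 at 50 mg/kg and at -0.88, -0.81, -0.66 and -0.90 at 75 mg/kg. The ranges of the doses met at -0.66. The 16 measured Wnt, Notch and Hedgehog genes had a median of 0.02. Areg, an EGF receptor ligand, differed by 0.68 ± 0.41, and the 10 measured EGF family genes had a median of 0.14. Krt15, a keratin of basal cells, was lower at 75 mg/kg by estimate (-0.53 ± 0.21, unadjusted p = 0.0246). Cd207, the langerin of Langerhans cells, differed by 0.50 ± 0.24, while the 13 measured macrophage and dendritic cell markers had a median of 0.01. The lists of retinoid handling, sterol synthesis, circadian clock and ER stress genes had medians of -0.15, 0.03, -0.02 and less than 0.01 in size. None of these genes passed the adjusted threshold in limma.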
